A study of Mus musculus with 10 samples.

Results

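The constant peaks were those of the growth-arrested 3T3-L1 preadipocyte list that recurred in every other list compared, through mitotic clonal expansion, differentiation and rhein treatment. They were chosen by overlap alone. A peak of the DMSO Pre list counted as constant when the span from its start to its end shared at least 1 base, on the same chromosome and strand, with a peak of each of the DMSO MCE, DMSO Diff and rhein MCE lists. The rule selected 557 of 2824 DMSO Pre peaks, or 19.7%, and left 2267 other DMSO Pre peaks. Constant here means listed each time, since the lists hold no level of methylation.

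N6-methyladenosine (m6A) is the commonest internal mark of messenger RNA. It is written mainly by the METTL3 and METTL14 complex at an adenosine within a short motif known as DRACH (any base but C, then a purine, then AC, then any base but G), of which GGAC is the usual core, and it is removed by the demethylases FTO and ALKBH5. In most mammalian cells the mark is dense around stop codons, in 3′ UTRs and in long exons, and sparse near splice junctions, where exon junction complexes sit. A separate writer, METTL16, methylates U6, a small nuclear RNA of the spliceosome. Proteins with a YTH domain bind methylated transcripts and change their decay or translation.

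The lists came from MeRIP-seq, in which fragmented RNA pulled down by an antibody against m6A (Abcam ab151230, the IP) is sequenced beside the same RNA before pull-down (the input). 3T3-L1 is a mouse fibroblast line that turns into fat cells when a hormone cocktail is added. The DMSO Pre group was preadipocytes before the cocktail, labelled DMSO with no days of treatment listed. The other groups were treated from day 0 to day 3. DMSO MCE cells were given DMSO and labelled as preadipocytes in mitotic clonal expansion (MCE). DMSO Diff cells were given DMSO and labelled as mature adipocytes. Rhein MCE cells were given 20 µM rhein and labelled as at the MCE stage. Rhein is a plant anthraquinone known as an inhibitor of FTO. A further list, rhein Diff, was kept out of the rule because it holds almost the same peaks as rhein MCE. These lists hold 3071 and 3069 peaks under labels of different stages. Why they nearly coincide was not tested, so the stage of rhein MCE rests on its label alone. Each of the 5 conditions had 1 IP and 1 input library, so no value had a replicate check, and the intervals given are 95% intervals of counting error over peaks only. The source names in the labels count upward from 3T3-L2, while the study names 3T3-L1 throughout.

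The peaks numbered 2824 in the DMSO Pre list, 5128 in DMSO MCE, 2944 for DMSO Diff and 3069 for rhein MCE, and read depth is unknown because no counts accompany them. The labelled cell types could not be checked by expression. Of the fat cell markers, Pparg, Cebpa, Fabp4, Adipoq, Plin1, Lpl and the preadipocyte gene Dlk1 had 0 peaks in every list, as had the markers of blood, endothelial and epithelial cells. Cebpb and Pdgfra, which preadipocytes express, had peaks in every list.

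The small RNAs among the constant peaks were almost all copies of U6. Of the 557 constant peaks, 52 (9.34%) were on snRNA genes, against 60 (2.65%) of the 2267 other peaks, a difference of 6.69 percentage points (4.42 to 9.45). RefSeq names 49 of the 52 as U6 spliceosomal RNA. Reads from near-identical copies can be assigned to the wrong copy or to several, so how many separate U6 genes were pulled down cannot be read from the lists, and the part of read assignment in this difference was not tested.

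Of the 20 constant peaks of highest lowest score, as defined further on, 8 lay in coding sequence, 3 in 3′ UTRs and 1 in a 5′ UTR. The windows printed next are 60 bases of coding sequence, read 5′ to 3′ on the transcribed strand from the RefSeq copy of GRCm38 (mm10). Each surrounds a GGAC of the peak, in capitals. It is the GGAC nearest to the middle of the peak whose whole window lies in coding sequence of 1 exon. They are the windows of 7 of the 8 named peaks in coding sequence, since the Cebpb peak had no GGAC that met this.

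Mdm2: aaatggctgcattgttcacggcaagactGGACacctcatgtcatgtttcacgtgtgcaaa
Hspa5: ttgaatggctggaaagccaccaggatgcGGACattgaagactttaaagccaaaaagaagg
Adamts1: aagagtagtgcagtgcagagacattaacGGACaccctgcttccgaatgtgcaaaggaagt
Gas1: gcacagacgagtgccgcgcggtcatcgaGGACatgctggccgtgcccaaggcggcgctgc
Tnks1bp1: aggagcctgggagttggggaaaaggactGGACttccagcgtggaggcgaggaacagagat
Col6a1: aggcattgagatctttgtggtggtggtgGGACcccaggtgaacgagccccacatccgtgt
Vcan: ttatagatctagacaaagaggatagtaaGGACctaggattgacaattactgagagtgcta

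The Mdm2 window lay at chr10:117690289-117690348 (minus strand), Hspa5 at chr2:34775953-34776012 (plus), Adamts1 at chr16:85795618-85795677 (minus), Gas1 at chr13:60176176-60176235 (minus), Tnks1bp1 at chr2:85063361-85063420 (plus), Col6a1 at chr10:76709692-76709751 (minus) and Vcan at chr13:89689818-89689877 (minus). For 2 of the 3 named peaks in 3′ UTRs, 30 bases picked in the same way are shown with GGAC in capitals. They lie at chr13:60175532-60175561 (minus) and chr4:57894124-57894153 (plus). The Gnas peak had no such GGAC.

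Gas1 in the 3′ UTR: tctgcagaattcgGGACaccctgcaaaagc
Pakap: aaaggggtgagagGGACaaagaaagaaagg

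The deposited lists give 1 value for each peak, under a heading that names a log2 fold change. In DMSO Pre it reached 735, so it cannot be one, and it is used here as a score without a unit that orders peaks within a list. Scores of different lists may not share a scale, so lists are set against each other by the rank of the peak in each, counted from the highest score. The 20 named peaks were the constant peaks whose lowest score over the 4 lists was highest, with the best-scoring overlapping peak taken in each other list. Scores entered the choice of these 20, and stronger peaks are listed more readily, so they are given as a description with no test. For brevity the DMSO lists are called Pre, MCE and Diff beside a score.

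Gm24144 scored 92.6 in Pre, 119 in MCE, 109 in Diff and 97.1 in rhein MCE. Gm23412 was next, with 86.4, 108, 99.6 and 91.9 in the same order. Both U6 copies were within the 20 highest scores of every list, and ranked highest in DMSO MCE, at 2 and 3.

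Mdm2 encodes the ubiquitin ligase that holds p53 in check. Its constant peak at chr10:117690100-117690549 covered 450 exonic bases, and its midpoint lay 112 bases before the end of the coding sequence in the last exon. It scored 335 in Pre, 75.5 in MCE, 183 in Diff and 79.0 in rhein MCE. It ranked 2 in Pre and 4 in Diff, and lower in the lists labelled MCE, at 15 and 27. Hspa5 encodes BiP, the main chaperone of the endoplasmic reticulum. Its peak at chr2:34775894-34776268 scored 129 in Pre, 74.9 in MCE, 138 in Diff and 77.8 in rhein MCE. Its ranks of 5, 16, 9 and 28 were again lowest in the lists labelled MCE.

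Several of the strongest constant peaks were on genes of the extracellular matrix. Adamts1, a secreted protease that cleaves versican, scored 62.4 in Pre, 59.7 in MCE, 86.2 in Diff and 93.3 in rhein MCE. Col6a1, a chain of collagen VI, scored 43.5, 63.2, 144 and 47.6 in the same order of lists. The Vcan peak at chr13:89689671-89689945 scored 32.7, 55.8, 194 and 60.3. Col6a1 and Vcan, which encodes the proteoglycan versican, ranked highest in DMSO Diff, at 7 and 3. This Adamts1 peak, at chr16:85795427-85795826, changed rank less, with 24, 29, 16 and 19. The other constant Adamts1 peak, at chr16:85794377-85794851, changed rank more, with 9, 411, 31 and 465 in the same order.

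Cebpb, a transcription factor switched on early in fat cell differentiation, had 2 DMSO Pre peaks and both were constant. The peak over the end of its coding sequence, chr2:167689790-167689939, scored 32.9 in Pre, 38.8 in MCE, 65.0 in Diff and 488 in rhein MCE, where it was the highest score of the list. The adjoining 3′ UTR peak, chr2:167690015-167690339, scored 5.38, 85.7, 12.8 and 6.80 and ranked highest, at 7, in MCE. The list of highest rank thus differed between 2 constant peaks of the same single-exon transcript. Whether the scores followed RNA level was not tested, since the lists hold no expression.

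Gnas, which encodes the stimulatory G protein alpha subunit, and the predicted gene Gm20721 on the opposite strand were both among the 20. The Gnas peak at chr2:174346528-174346744 scored 50.7 in Pre, 42.5 in MCE, 32.9 in Diff and 36.8 in rhein MCE. The Gm20721 peak at chr2:174346529-174346703 scored 50.9, 39.2, 34.0 and 28.7. The spans are nearly the same, and whether strand was used in counting is not given in the sources used here, so reads of these genes cannot be told apart. Of the 557 constant peaks 15 faced a DMSO Pre peak with exonic bases on the other strand, as did 50 of the 2267 other peaks.

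**Figure D1:**
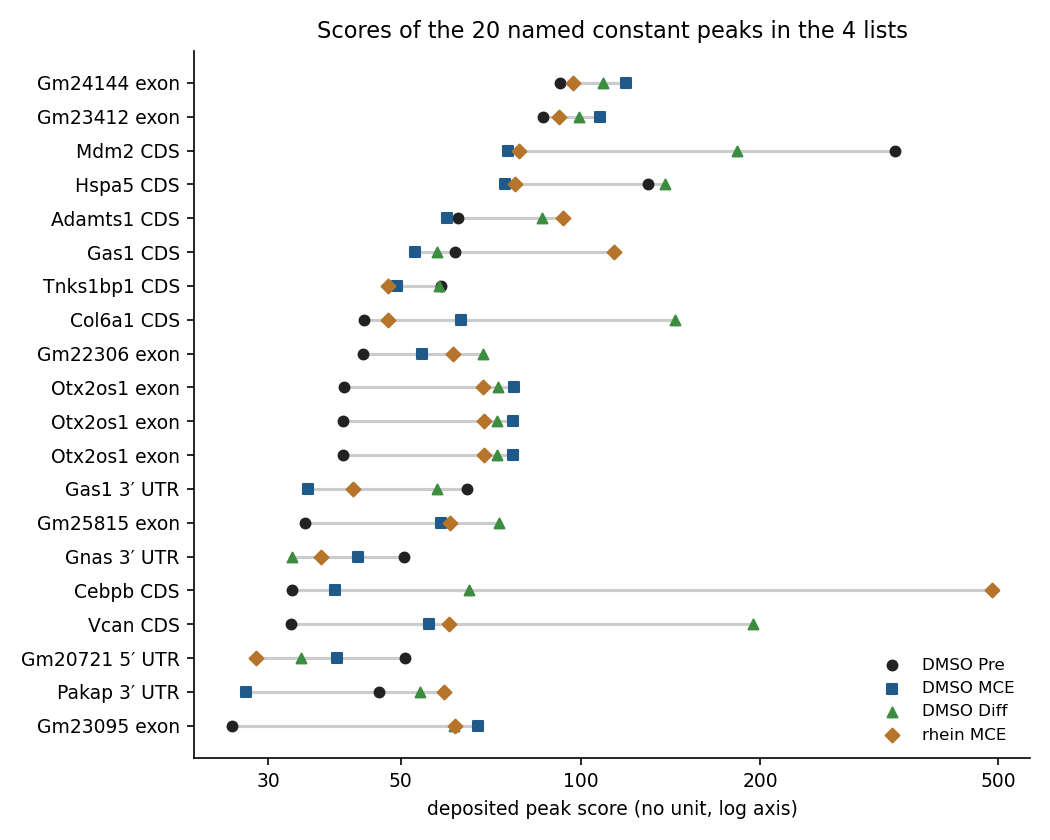
Deposited peak score, without a unit and on a log axis, of the 20 named constant peaks in the lists DMSO Pre (circles), DMSO MCE (squares), DMSO Diff (triangles) and rhein MCE (diamonds), each from 1 IP and 1 input library. Gm24144 spans 92.6 to 119, while Cebpb spans 32.9 to 488 and Mdm2 spans 75.5 to 335.

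Over all 557 constant peaks the scores kept a loose order between lists. Spearman's rho was 0.535 between DMSO Pre and DMSO Diff, 0.474 between DMSO MCE and rhein MCE, and 0.257 between DMSO Pre and DMSO MCE. These are descriptions across peaks that come from the same libraries. The median score in DMSO Pre was 9.37 (quartiles 6.74 and 14.3) for the constant peaks and 7.49 (5.70 and 10.6) for the others. With the DMSO Pre peaks in 10 classes of equal size by score, 33.0% of the highest class and 11.0% of the lowest were constant.

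The other DMSO Pre peaks divided unevenly. No peak of the other 3 lists met 1090 of them (38.6% of DMSO Pre), which made this the largest class. A further 290 were met by DMSO MCE alone, 224 by DMSO Diff alone and 121 by rhein MCE alone. Of those met by 2 lists, 236 lacked DMSO Diff, 190 lacked rhein MCE and 116 lacked DMSO MCE. DMSO MCE is the longest list, and its peaks met more DMSO Pre peaks in each of these classes.

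**Figure D2:**
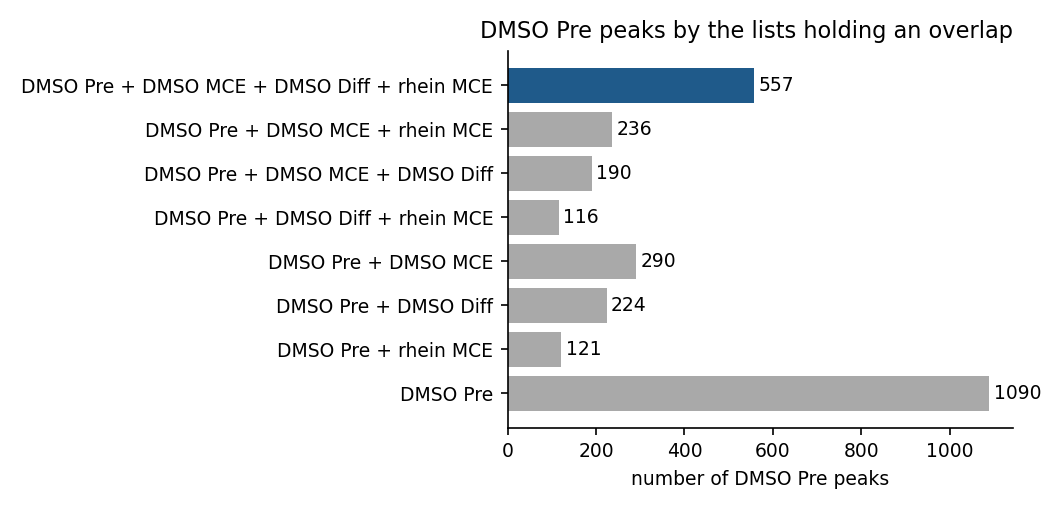
Number of DMSO Pre peaks by the set of lists with an overlapping peak on the same strand. The blue bar holds the 557 constant peaks, and the lowest bar the 1090 peaks met by no other list.

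The recurring peaks mostly sat in the same place, which the rule favours because it asks for an overlap in every list. The values that follow are therefore a description with no test. A core of exonic bases shared by all 4 lists existed for 524 of the 557 constant peaks, with a median of 125 bases (quartiles 75 and 200), or a median of 75% of the exonic length of the peak. The core was 50 bases or longer for 494. The span was identical in all 4 lists for 75 peaks (13.5%). The midpoint of the best partner lay a median of 13 bases away in each of the 3 other lists. The other 33 constant peaks had no such core, and 10 constant peaks shared no exonic base with at least 1 of the lists. Among the 33 without a core were peaks of Ythdf3 and Alkbh5, a reader and an eraser of m6A, and of Dcn, Lrp5, Lrp6 and Tpm4.

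At the edge of the rule the caller's step of 25 bases showed. The smallest overlap of a constant peak was 25 bases and occurred in 27 peaks, such as Lrp5 at chr19:3630230-3630329 with DMSO MCE and a short Usp9x peak at chrX:13156580-13156629 with rhein MCE. Just outside, 25 peaks failed only 1 list, and there by 25 bases or fewer. Of these, 15 abutted the nearest peak with 0 bases between, such as Peak1 in rhein MCE and Rpl41 in DMSO MCE.

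Constant peaks were long, which the rule favours. Their median exonic length was 200 bases (quartiles 125 and 250), against 100 bases (75 and 175) for the others. Of peaks of 25 to 50 bases 3.66% were constant, of peaks of 201 to 300 bases 41.9%, and of longer peaks 53.6%. A long span is met by more peaks by its extent alone, so length is a description. The comparisons that follow use the midpoint of each peak or a fixed window. This does not make the classes equal in length, so some are repeated among peaks of 75 to 150 exonic bases.

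Most constant peaks, 468 of 557, were on coding transcripts. They clustered at the stop codon more than the others did. The midpoint was within 200 bases of the end of the coding sequence in 129 of 468 (27.6%), against 384 of 1939 other peaks (19.8%), a difference of 7.76 percentage points (3.49 to 12.3). The 5′ UTR held 5.56% of the constant peaks and 5.52% of the others, a difference of 0.04 points (-2.02 to 2.67). The coding sequence held 50.2% and 55.1%, a difference of -4.92 points (-9.94 to 0.11), and the 3′ UTR 44.2% and 39.4%, a difference of 4.88 points (-0.07 to 9.89). At these numbers a difference in the share of any of the 3 regions was not detectable, and the stop codon region alone separated the classes. Constant peaks at this place included Zfp91, a zinc finger ubiquitin ligase, with its midpoint 35 bases past the end of the coding sequence. Btg1, an antiproliferative gene, had its midpoint 18 bases past it, and Il6st, which encodes the shared receptor subunit gp130, 33 bases past it.

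**Figure D3:**
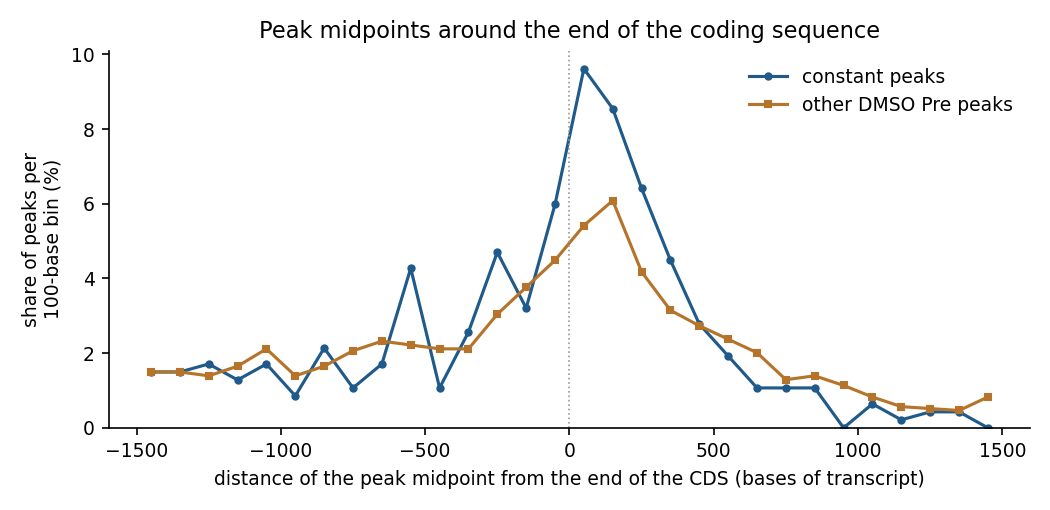
Share of peaks in each 100-base bin of distance between the peak midpoint and the end of the coding sequence, in bases of transcript, for 468 constant and 1939 other DMSO Pre peaks on coding transcripts. The first 100 bases of the 3′ UTR hold 9.62% of the constant and 5.42% of the other peaks.

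The exon around the peak separated the classes more clearly. The midpoint lay within 100 bases of a splice junction in 47 of 459 constant peaks on transcripts with a junction (10.2%) and in 565 of 2053 others (27.5%), a difference of -17.3 points (-20.4 to -13.6). The next shares are of DMSO Pre peaks on coding transcripts with more than 1 exon, by distance of the midpoint from a junction. At 0 to 50 bases 5.65% were constant, at 51 to 100 bases 8.02% and at 101 to 200 bases 20.8%. The share was 24.3% both at 201 to 400 and at 401 to 1000 bases. Beyond 1000 bases the share was 16.7%. Among peaks of 75 to 150 exonic bases on the same transcripts, the shares in the same 6 classes of distance were 4.51%, 4.85%, 13.2%, 9.70%, 13.5% and 8%. For these peaks the difference within 100 bases of a junction was -15.2 points (-22.0 to -5.49). Over all transcripts with a junction it was -11.1 points (-18.9 to -1.09) at this length. In both series of distance classes the share was lowest within 100 bases of a junction.

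Constant peaks were also in longer and later exons. On coding transcripts with more than 1 exon, 93.1% of constant and 77.1% of other midpoints were in an exon of 400 bases or more, a difference of 16.0 points (12.6 to 18.8). Over all placed peaks, U6 copies included, the shares were 82.6% and 73.2%, a difference of 9.40 points (5.55 to 12.9). On the coding transcripts 67.0% and 53.1% were in the last exon, a difference of 13.8 points (8.77 to 18.7). Of peaks on all coding transcripts, internal exons held 120 constant (25.6%) and 732 other peaks (37.8%), a difference of -12.1 points (-16.4 to -7.45). The internal exons of constant peaks had a median length of 822 bases, against 431.5 bases for those of other peaks. Vcan shows this class, with 3 constant peaks in its exon 8 of 5217 bases. Further examples were Usp47 and Usp9x, deubiquitinases with constant peaks in internal exons of 781 and 754 bases, and Son, a splicing cofactor with constant peaks in an exon of 5970 bases. Transcripts of a single exon, such as Gas1, Cebpb, Jun, Junb and Hnrnpa0, held 35 constant peaks (7.48%) and 51 other peaks (2.63%).

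The core motif was more frequent in constant peaks. GGAC, searched on the transcribed strand only, was found in the 100 bases of transcript around the midpoint of 322 of 547 constant peaks placed on a transcript (58.9%) and 1078 of 2208 others (48.8%), a difference of 10.0 points (5.38 to 14.6). On coding transcripts alone the shares were 65.6% and 51.2%, a difference of 14.4 points (9.44 to 19.1). Among peaks of 75 to 150 exonic bases the difference was not detectable, at 7.94 points (-3.11 to 18.6) on coding transcripts and -7.93 points (-15.8 to 0.63) over all transcripts. DRACH, searched the same way and overlapping GGAC where A, C or T follows, was present in 94.7% and 90.6% of the windows, a difference of 4.07 points (1.58 to 6.12) for this looser motif. That difference was -0.80 points (-7.08 to 3.74) among peaks of 75 to 150 exonic bases. Among its forms on coding transcripts, GGACT was in 32.1% of constant and 18.7% of other windows, a difference of 13.4 points (8.94 to 18.1). AGACT was in 24.6% and 14.8%, and GAACT in 21.4% and 14.2%. Both differences had intervals above 0. AAACA was in 10.5% and 13.3%, with an interval that included 0.

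The excess was local. Within 50 bases of the midpoint GGAC occurred 11.3 times per kb of constant peaks and 7.73 times per kb of other peaks, and 200 to 300 bases away 4.76 and 4.52 times. Of the sequences shown above, the Mdm2, Adamts1, Gas1 and Vcan windows have their GGAC within 50 bases of the midpoint, whereas those of Hspa5, Tnks1bp1 and Col6a1 lie farther out in the peak.

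**Figure D4:**
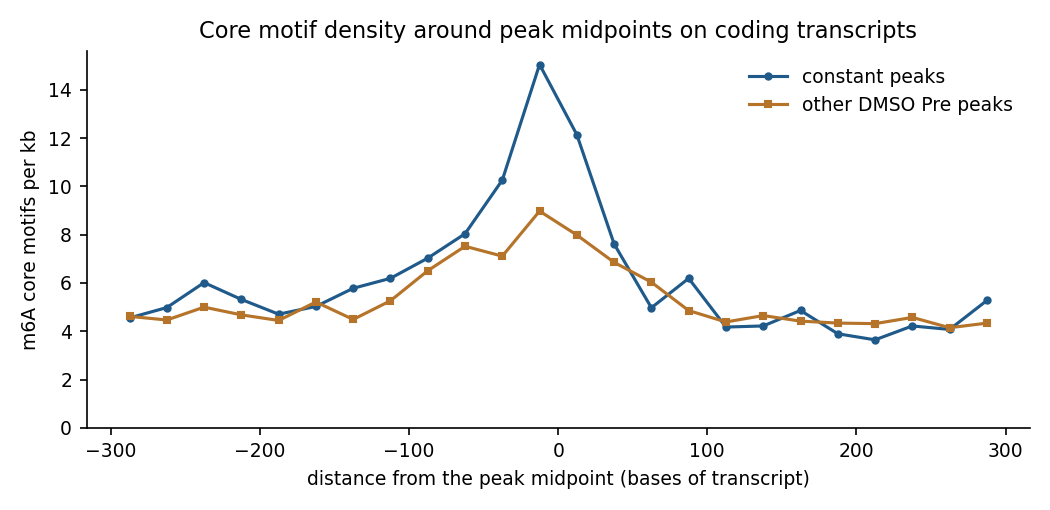
Core motifs per kb of transcript in 25-base bins around the midpoint of 468 constant and 1939 other DMSO Pre peaks on coding transcripts. The density of constant peaks rises to 15.0 per kb in the bin just before the midpoint, that of other peaks to 8.97, and both lie between 3.64 and 6.01 per kb beyond 200 bases.

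Most of these differences were also seen between peaks of the same genes, where peak length was not restricted. In 177 genes that held both 235 constant and 350 other peaks, the midpoint was near the stop codon in 26.3% of constant and 11.7% of other peaks on coding transcripts, a difference of 14.6 points (8.03 to 21.4). GGAC was in 66.8% and 50% of the windows, a difference of 16.8 points (8.67 to 24.5). A junction was within 100 bases of 8.41% and 21.1% of the midpoints, a difference of -12.6 points (-18.3 to -6.57). The DRACH difference was not detectable there, at 1.90 points (-2.69 to 6.08).

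Several features changed at each step in the number of other lists that held the peak. From 0 through 1 and 2 to 3 other lists, the share near a junction was 37.1%, 19.5%, 16.5% and 10.2%. The share in the last exon was 47.5%, 58.0%, 67.0% and 71.5%, where single exons, U6 copies included, count as last. The share with GGAC was 44.2%, 51.9%, 54.5% and 58.9%. Median exonic length was 75, 124, 150 and 200 bases. The share in long exons, at 66.6%, 79.5%, 79.2% and 82.6%, and the share with DRACH, at 88.1%, 91.4%, 94.8% and 94.7%, did not rise at every step. Against the 542 peaks met by exactly 2 other lists, constant peaks on coding transcripts with more than 1 exon were less often near a junction, by -5.30 points (-9.37 to -1.27), and more often in long exons, by 4.64 points (0.78 to 8.53). Over all placed peaks the long exon difference was 3.42 points (-1.27 to 8.10), which was not separated. For the stop codon region the difference was 1.87 points (-4.02 to 7.76), for the last exon 2.12 points (-4.15 to 8.37) and for GGAC 3.65 points (-2.77 to 10.03), and these were not separated. The contrast was largest with the peaks met by no other list.

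**Figure D5:**
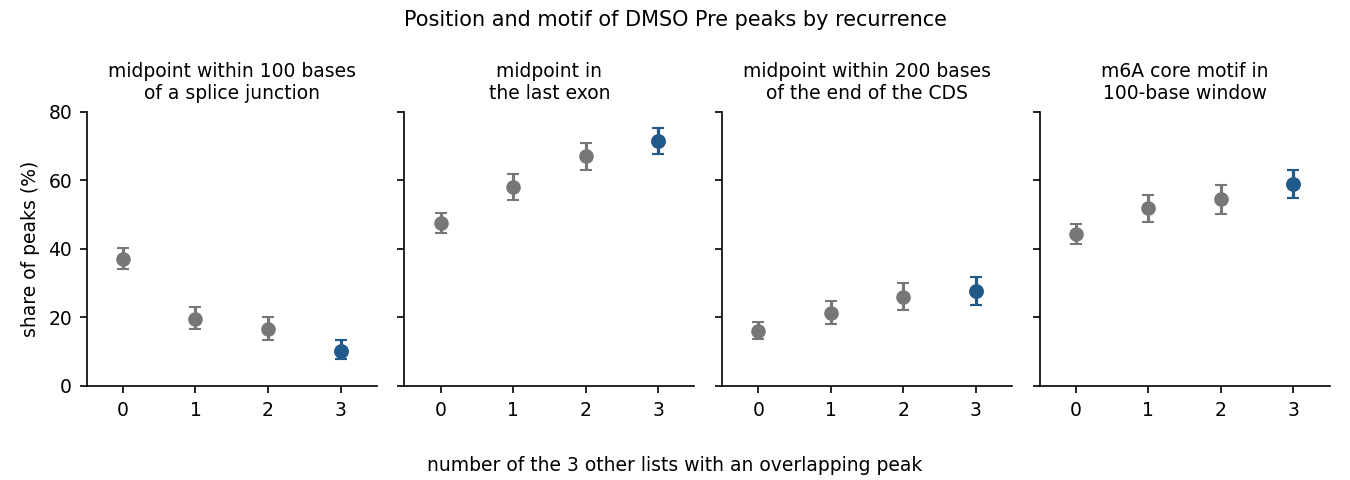
Share of DMSO Pre peaks, in percent, with each feature by the number of the 3 other lists that held an overlapping peak, with 95% Wilson intervals. The blue points are the constant peaks, at 10.2% near a junction, 71.5% in the last exon, 27.6% near the end of the coding sequence and 58.9% with the core motif. Transcripts of a single exon, U6 copies included, count as last exon.

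The constant peaks fell in 460 of the 1729 genes with a DMSO Pre peak. In 402 genes there was 1 constant peak, in 41 there were 2 and in 17 there were 3 or more. Plec, which encodes the cytoskeletal linker plectin, had most, with 9 of its 15 DMSO Pre peaks constant. All 9 lay in its last 2 exons, of 3381 and 7412 bases. Gas1, a membrane protein made in growth-arrested cells, had 5 of 7, the long noncoding RNA Otx2os1 5 of 5, Vcan 4 of 8 and Pakap, an anchoring protein of protein kinase A, 4 of 4.

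Gas1 and Otx2os1 show how differently such clusters scored. A pair of neighbouring 5′ UTR peaks of Gas1 scored 15.0 and 13.3 in DMSO Pre, and a single rhein MCE peak of score 279 met both. By contrast, 3 Otx2os1 peaks of 75 bases each, at chr14:48669313-48669387, chr14:48672336-48672410 and chr14:48719678-48719752, scored between 40.1 and 40.2 in Pre, 77.1 and 77.3 in MCE, 72.4 and 72.7 in Diff and 68.6 and 68.9 in rhein MCE. These 3 peaks kept nearly equal scores within every list. Those at chr14:48669313-48669387 and chr14:48719678-48719752 had equal scores in MCE, Diff and rhein MCE. Whether the 3 peaks are separate sites was not tested.

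The functional groups were described by counts beside the 19.7% of all DMSO Pre peaks that were constant. The lists of genes were written with results of these data known. Of 675 peaks in any of the listed genes 136 were constant, or 20.1%. By genes, 26.6% of those with a DMSO Pre peak held a constant one. A gene counted when any of its peaks was constant, so lists with more peaks per gene can reach higher gene shares by that alone. The list of adipogenic and lipid genes held 9 constant of 19 peaks (47.4%, 27.3 to 68.3), in 4 of 11 genes (36.4%). All 9 were in transcription factors of fat cell differentiation, which had 15 peaks, and lay in Cebpb, Klf9, Klf13 and the orphan receptor Nr2f2. Cebpd, Klf2, Nr3c1 and Rxra had peaks of which none was constant. Peaks of 1 gene are not independent, so the interval is too narrow. The stronger Klf13 peak scored 22.3 in Pre, 17.1 in MCE, 18.4 in Diff and 19.5 in rhein MCE, and the stronger Klf9 peak 11.0, 8.70, 21.4 and 9.41. The stronger Nr2f2 peak by lowest score scored 16.2, 69.8, 10.8 and 10.3. The lipid and fat cell genes held 0 constant of 4 peaks (0 to 49.0%), in Fasn, Plin2 and Plin4, and at 4 peaks no difference from the background could be seen.

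Genes of the m6A machinery held 4 constant of 8 peaks (50%, 21.5 to 78.5). The constant ones were 2 coding sequence peaks of the reader Ythdf1, 1 of the reader Ythdf3 and 1 in the 3′ UTR of the demethylase Alkbh5. The writer subunits Rbm15 and Zc3h13 and the readers Ythdf2 and Igf2bp2 had DMSO Pre peaks that were not constant. The Alkbh5 peak scored 6.39 in Pre, 8.35 in MCE, 7.36 in Diff and 7.01 in rhein MCE, and was 1 of those without a common core.

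The list of immediate-early genes held 4 constant of 11 peaks (36.4%, 15.2 to 64.6), an interval that includes 19.7%. They lay in Jun, Junb and Dusp1, which growth signals induce rapidly, and in the antiproliferative gene Btg1. The Junb peak scored 5.44 in Pre, 91.3 in MCE, 21.0 in Diff and 61.1 in rhein MCE, and the Jun peak 6.69, 73.3, 5.62 and 6.96. Both ranked highest in DMSO MCE, at 6 and 20, and at 2271 and 1793 in DMSO Pre. Receptors of growth factors and cytokines held 14 of 50 (28%, 17.5 to 41.7), and this interval also includes 19.7%. These peaks lay in 10 of 19 genes (52.6%), among them Il6st, Bmpr1a, Ddr1 and Lrp10. The preadipocyte marker Pdgfra held 1 of 5, which scored 4.82 in Pre, 71.1 in MCE, 6.97 in Diff and 10.3 in rhein MCE.

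Counted by peaks, the larger groups were near the background. Extracellular matrix genes held 20 constant of 117 peaks (17.1%, 11.3 to 24.9), within them the collagens 4 of 37. By genes it was 12 of 30 (40.0%), with 117 peaks in 30 genes against 2824 peaks in all 1729 genes. Cytoskeleton and adhesion genes held 26 of 122 (21.3%), of which 9 were in Plec, and by genes 15 of 39 (38.5%). Chromatin modifiers held 10 of 53, for instance Setd5 and Kdm5a, RNA-binding factors 13 of 55, for instance Hnrnpa0 and Son, zinc finger genes 7 of 34 and the ubiquitin system 13 of 79. Cell cycle and p53 genes held 5 of 31, in Mdm2, Cdc16, Cdkn1b, Cdkn2a and Cdk10. The Wnt, TGF-beta, Notch and Hippo pathways held 6 of 25, the insulin, PI3K and mTOR pathway 3 of 15 and GTPase regulators 4 of 31. Solute carriers held 1 of 22 (4.55%, 0.81 to 21.8) and ribosomal protein genes 1 of 15 (6.67%, 1.19 to 29.8), and both intervals include 19.7%.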

How the data were processed

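Peak lists of 5 conditions, each labelled with 1 IP and 1 input library, were used as deposited. The authors trimmed the reads, aligned them to the mouse genome (mm10), removed duplicates and reads of low mapping quality, and called peaks with exomePeak2 at its default settings, whose version is not given in the sources used here. The submitters' processing notes name Trim Galore 0.6.5, HISAT2 2.1.0, Picard 2.23.5, SAMtools 1.9 and ChIPseeker 1.26. Which IP and input entered each call, and whether the library preparation kept strand, is not given in the sources used here. The deposited column headed as a log2 fold change was treated as a score, for the reason given with the results. No per-sample depth could be read from the lists.

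Each peak was placed on a GENCODE M21 transcript of the same strand that held both ends in exons, with preference for coding and then for longer transcripts, which succeeded for 98.2% of constant and 97.4% of other DMSO Pre peaks. The gene symbol in the lists was not used, since another gene held the peak for 32.5% of constant and 27.5% of other placed peaks. Unplaced peaks kept their span. Sequence came from the RefSeq copy of GRCm38, indexed with SAMtools 1.23.1. The sequences of the small nuclear RNA copies are not reported here. Python 3.11.15, NumPy 2.4.6, pandas 2.3.3 and Matplotlib 3.10.9 were used, and the procedures were tested on simulated data.

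The constant peaks, the gene lists and the features compared were chosen with earlier results of these data known. Shares carry 95% Wilson intervals and differences of shares Newcombe intervals, both for counting error over peaks, which are not replicates, and no p-value was computed. Named peaks were the 20 of highest lowest score, the 5 genes with most constant peaks, up to 4 genes of each gene list, and the peaks nearest to the edge of the rule. Genes named outside this rule were picked with their values in view. Alternatives changed the overlap, the lists in the rule, peak length, score, 1 peak per gene and the list described. The rows restricted to coding transcripts, to genes with both kinds of peak, to midpoints away from junctions, to coding peaks of limited length, and to the DMSO MCE and DMSO Diff lists were added after the data had been seen. Rhein Diff was used only as an alternative.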

Additional observations from a re-analysis of the deposited data

Results flagged for a closer look

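The rhein Diff list took no part in the rule. All 557 constant peaks nevertheless also overlapped a peak of that list on the same strand. Since the rhein Diff list holds almost the same peaks as rhein MCE, the overlap is no separate observation of the constant peaks.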

How the results depend on the processing

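The number of constant peaks was 547 when an exonic base had to be shared with each list, 389 when the overlap had to cover 50% or more of the DMSO Pre span, 558 with rhein Diff in place of rhein MCE, 494 when the longer lists were cut to the 2824 highest scores and 572 with strand ignored. Without rhein MCE in the rule it was 747, without DMSO Diff 793 and without DMSO MCE 673. Direction and side were kept in 28 of 35 alternatives for position, 30 of 31 for the exon and 19 of 24 for the motifs. The deficit near junctions, the last exon and the stop codon region kept theirs under all that were run. Restricted to exonic lengths of 75 to 150 bases, the long exon difference was -14.1 points, GGAC -7.93 and DRACH -0.80. This length class holds most U6 copies, and on coding transcripts alone long exons gave 13.3 points, GGAC 7.94 (-3.11 to 18.6) and DRACH -4.64. In genes with both kinds of peak DRACH gave 1.90 points (-2.69 to 6.08). The 5′ UTR difference was -0.011 with 1 peak per gene, -1.87 in the DMSO MCE list, -0.39 in DMSO Diff and -0.98 with the region listed by the authors. The 3′ UTR difference was 6.55 in DMSO MCE and 5.46 in DMSO Diff, and the CDS difference -5.07 in DMSO Diff, with intervals that left out 0. Counted by genes, 26.6% held a constant peak. No paired analysis was possible because each condition had 1 IP and 1 input. Depth is unknown, so weak sites cannot be told from unsampled ones.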
